A study of Mus musculus with 22 samples.

Results

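The NK cell and cytotoxic genes described here are 10 genes picked by symbol, Prf1, Gzma, Gzmb, Nkg7, Ncr1, Klrb1c, Klrd1, Ifng, Xcl1 and Eomes, out of 52526 distinct symbols in the deposited expression files. All 10 symbols were present in the files. They were followed in the mammary tissue of 22 female C57BL/6J mice aged 7 to 8 weeks, all engrafted in the left 4th mammary fat pad with EO771 cells, mammary cancer cells that originate from C57BL/6 mice and here carried firefly luciferase. Before that, the mice had lived for 2 weeks either with a running wheel or, as controls, with the hub of the wheel alone, and wheels stayed in place until the tissue was taken 24 hours after engraftment. Every mouse also received intravenous liposomes 24 hours before and again at engraftment, filled either with PBS or with clodronate, a drug that kills phagocytes that swallow it. With PBS there were 6 control and 6 wheel mice, and with clodronate 5 of each, all in 1 experiment.

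Natural killer (NK) cells are innate lymphocytes that kill stressed, infected or transformed cells without prior priming, and they share most of their killing machinery with cytotoxic T cells. Granules holding perforin and granzymes are released onto the target, where perforin opens the membrane and granzymes start cell death. Activating and inhibitory receptors on the NK cell decide whether that happens, and once triggered the cell also secretes interferon gamma and chemokines that draw in dendritic cells and T cells. In bulk tissue of this kind, fewer cells of a type and less RNA per cell cannot be told apart.

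Reads came from the 3' ends of transcripts (QuantSeq), so a gene is represented by a short tag and not by its whole length. The deposited signal is in CPM, read counts scaled to a common library size, and every value below 1 had been raised to 1, called the floor here. Depth was 13256467 to 20484578 reads per mouse (median 16293026), so the floor stood for 13 to 20 reads depending on the mouse, and anything lower was not detectable. That limit covers counting error only, since PCR copies were not told apart. Of the 220 values of the 10 genes in 22 mice, 91 (41.4%) lay above the floor. The number of mice at the floor was 2 of 22 for Nkg7, 8 for Gzma, 10 for Klrd1 and for Xcl1, 11 for Prf1, 13 for Klrb1c, 14 for Eomes, 18 for Ncr1, 21 for Ifng and 22 for Gzmb. Tests covered 15138 genes that exceeded the floor in 5 or more mice, which took in 7 of the 10 genes and left out Gzmb, Ncr1 and Ifng. Eomes passed that filter only together with the lymphocyte-rich libraries described next, since it was above the floor in 4 of the 17 other mice.

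Of the 22 libraries, 5 stood apart in B cell markers, 8 genes whose summed CPM was over 10 times the median of all libraries. Every gene at the floor adds 1 CPM to such a sum, so a sum of 8 means all 8 markers at the floor. The sum was 200 in control mouse 2 and 241 in wheel mouse 3 with PBS liposomes, and 632, 691 and 429 in wheel mice 3, 4 and 5 with clodronate liposomes, against 8 to 10.2 in the other 17. These 5 libraries held all 8 B cell markers and all 14 T cell markers above the floor, and the T cell markers summed to 284, 290, 631, 622 and 408 CPM in the same order, against 15.9 to 58.9 elsewhere. Trbc2, a T cell receptor constant region, was the most abundant T cell marker and Ms4a1, which encodes CD20, the most abundant B cell marker. The 4 lymph node stroma markers summed to 25.5 to 95.2 CPM there, nearly all of it Cxcl13. Elsewhere they summed to 4, all at the floor, to 5.19 CPM. Ccl21a and Ccl19 were at the floor in all 22 mice. Wheel mice with clodronate liposomes therefore include 3 such libraries of 5, control mice with clodronate liposomes 0 of 5, and the PBS groups 1 of 6 each. Whether a lymph node was part of the dissected tissue is not given in the labels. The part of these lymphocyte levels in any difference between groups was not tested. Changes without the 5 libraries are stated in the text for some of the members, in all comparisons except clodronate against PBS in control mice. As a check of the tissue, adipocyte markers summed to 1776 to 4634 CPM and mammary epithelium markers to 177 to 3513 CPM, with every marker of both lists above the floor in each mouse. Muscle markers summed to 8.60 to 11121 CPM. The 5 neutrophil markers summed to 5, all at the floor, to 17.8 CPM, with Ly6g at the floor in all 22 mice. Innate-like lymphocyte markers summed to 89.2 to 254 CPM, mostly Gata3, which mammary epithelium also expresses, with Il17a at the floor in all mice, so the sum is no measure of those lymphocytes. Mast cell and plasmacytoid dendritic cell markers summed to 34.8 to 108 CPM, with Bst2 the most abundant single marker.

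**Figure D1:**
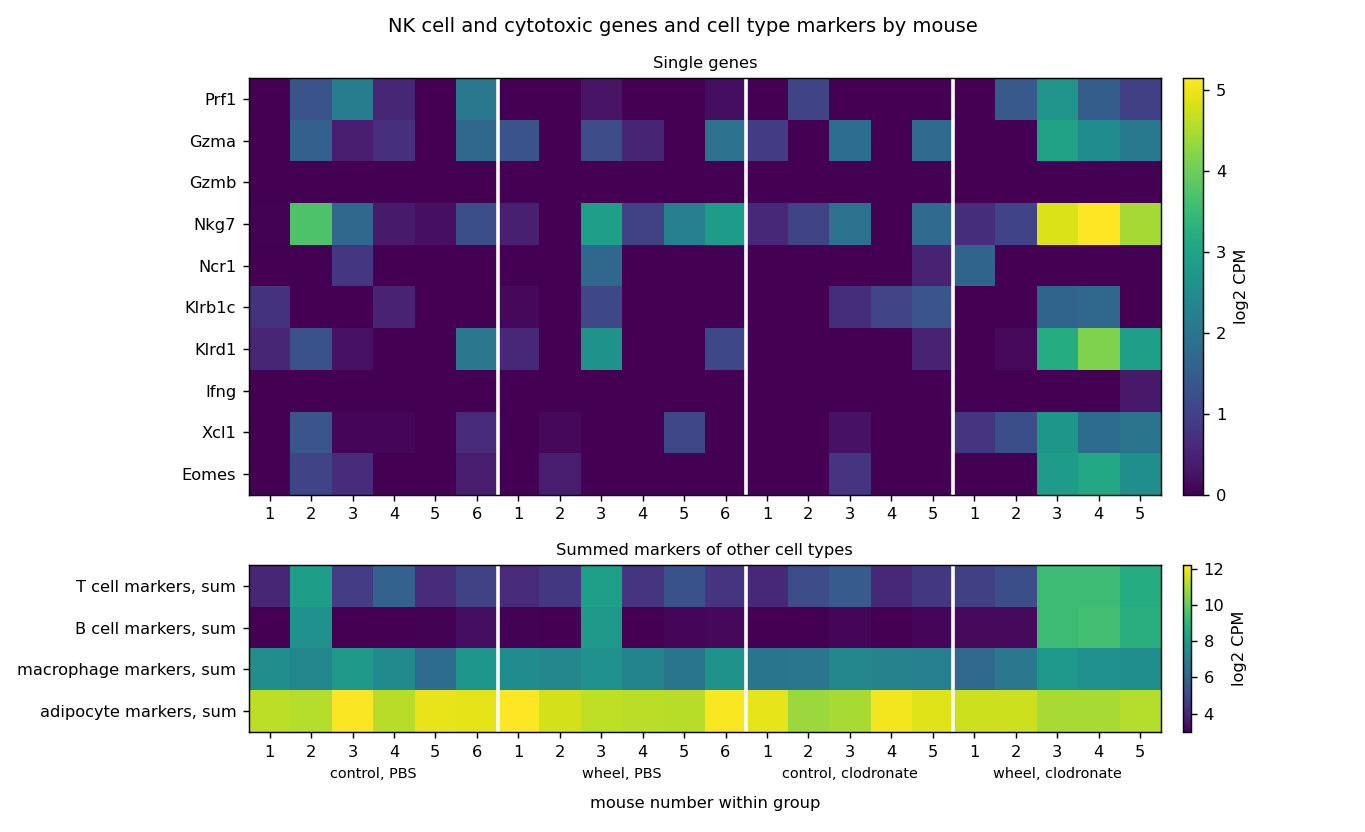
Log2 CPM of the 10 genes (upper panel, rows) and log2 of the summed CPM of 4 marker lists (lower panel) in each of the 22 mice (columns, numbered within groups); the panels have separate colour scales. Wheel mice 3, 4 and 5 with clodronate liposomes are bright for Nkg7, Klrd1, Eomes, Gzma and Xcl1 and for T and B cell markers, while Gzmb is at the floor in all 22 columns.

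In the reference annotation (GENCODE M21, build GRCm38) the 10 genes lie on 7 chromosomes and only the receptors Klrb1c (chr6:128778485-128789215, minus strand) and Klrd1 (chr6:129591782-129598775, plus strand) are close neighbours, in the NK receptor cluster. The granule genes are Prf1 (chr10:61297833-61304680, plus), Gzma (chr13:113093825-113100981, minus), Gzmb (chr14:56258838-56262260, minus) and Nkg7 (chr7:43437073-43438249, plus). The others are Ncr1 (chr7:4337724-4345164, plus), Ifng (chr10:118441046-118445892, plus), Xcl1 (chr1:164931644-164935527, minus) and Eomes (chr9:118478212-118486132, plus). For 3' tags the last 400 bases of a transcript matter, and within them Klrb1c shares runs of 50 bases with Klrb1a, Klrb1b, a pseudogene and the overlapping model Gm44511, so its reads could be split between copies and its values are uncertain. Klrb1b was above the floor in 6 mice (highest 3.59 CPM). Xcl1 and Eomes are overlapped by genes on the opposite strand, Gm20743 and Gm33460, which were above the floor in 1 and 0 mice, and the end of Ifng is shared with Gm49751, which the files do not list.

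Promoter sequence (300 bases around the transcription start, RefSeq, build GRCm38.p6) was at hand for 9 of the 10 genes. It is printed for Nkg7, Gzma and Xcl1, 3 of the genes whose highest values were in wheel mice 3, 4 and 5 with clodronate liposomes, and for Gzmb, which was never above the floor. These 4 were picked after their values were seen. Capitals mark the letters TGTGGT, the core bound by RUNX factors, or the T-box letters AGGTGTGA, on either strand.
Nkg7: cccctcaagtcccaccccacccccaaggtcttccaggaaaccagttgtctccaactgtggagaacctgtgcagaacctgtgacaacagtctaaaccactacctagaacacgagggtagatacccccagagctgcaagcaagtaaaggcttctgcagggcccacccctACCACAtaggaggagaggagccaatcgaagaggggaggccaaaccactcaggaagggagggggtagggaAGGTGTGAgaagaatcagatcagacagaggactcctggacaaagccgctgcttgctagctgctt
Gzma: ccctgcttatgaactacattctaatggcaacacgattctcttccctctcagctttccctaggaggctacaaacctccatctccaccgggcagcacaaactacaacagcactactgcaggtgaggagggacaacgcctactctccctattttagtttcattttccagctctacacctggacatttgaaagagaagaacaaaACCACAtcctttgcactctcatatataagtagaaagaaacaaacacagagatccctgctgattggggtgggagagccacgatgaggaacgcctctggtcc
Xcl1: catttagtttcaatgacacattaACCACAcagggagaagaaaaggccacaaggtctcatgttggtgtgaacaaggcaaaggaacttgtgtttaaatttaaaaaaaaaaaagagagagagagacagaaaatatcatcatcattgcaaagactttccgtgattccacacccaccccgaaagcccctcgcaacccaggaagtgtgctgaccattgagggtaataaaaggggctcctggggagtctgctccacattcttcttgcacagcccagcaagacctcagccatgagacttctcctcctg
Gzmb: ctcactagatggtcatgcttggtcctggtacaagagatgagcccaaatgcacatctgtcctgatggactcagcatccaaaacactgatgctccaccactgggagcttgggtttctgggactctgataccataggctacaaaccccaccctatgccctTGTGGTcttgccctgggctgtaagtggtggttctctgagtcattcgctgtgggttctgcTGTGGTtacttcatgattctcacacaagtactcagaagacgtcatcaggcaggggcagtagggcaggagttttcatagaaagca
These windows are chr7:43436888-43437187 (plus strand), chr13:113100932-113101231, chr1:164935473-164935772 and chr14:56262285-56262584 (all minus), written 5' to 3'. The RUNX letters were found in 7 of the 9 genes (Prf1, Gzma, Gzmb, Nkg7, Ncr1, Klrb1c and Xcl1) and in 16.8% of all 32851 promoters of that table. Only Nkg7 held the T-box letters, at bases 237 to 244 of the window and without overlap with its RUNX match at 168 to 173, against 1.28% of all promoters. The ETS letters CCGGAAGT, present in 3.89% of all promoters, were in 0 of the 9. Gzmb held 2 RUNX matches. A match is a description of the sequence, and 3' reads did not measure promoter activity.

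Among the granule genes, Nkg7, a membrane protein of cytotoxic granules, was the member most often above the floor. Its level was 1.02 to 13 CPM (median 1.81) in control mice and 1 to 7.51 (median 3.35) in wheel mice with PBS liposomes. With clodronate liposomes it was 1.51, 2.07, 3.77, 1 and 3.47 CPM in control mice 1 to 5 and 1.58, 2.05, 28.9, 35.3 and 21.8 CPM in wheel mice 1 to 5. The last 3 values rest on 475, 581 and 409 reads, and they are the 3 libraries with the highest T cell marker sums; wheel mice 1 and 2 lay within the range of the control mice. The highest value in each PBS group, 13 CPM in control mouse 2 and 7.51 CPM in wheel mouse 3, was also that of the lymphocyte-rich library, although wheel mouse 6, which is not one, reached 7.15 CPM.

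Prf1 encodes perforin, the pore-forming protein. It was 1 to 4.45 CPM (median 1.98) in control mice with PBS liposomes, above the floor in 4 of 6, and 1 to 1.2 CPM (median 1) in wheel mice, above the floor in 2 of 6. Its 2 highest PBS values, 4.45 and 4.18 CPM in control mice 3 and 6, came from libraries with few B cell markers, so Prf1 was not confined to the lymphocyte-rich ones. With clodronate liposomes it was at the floor in 4 of 5 control mice (2.07 CPM in mouse 2) and at 1, 2.69, 6.44, 2.85 and 1.97 CPM in wheel mice 1 to 5.

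Gzma encodes granzyme A, a tryptase-like granule protease found in resting mouse NK cells. Its range was 1 to 3.34 CPM (median 1.47) in control and 1 to 3.86 CPM (median 1.85) in wheel mice with PBS liposomes. With clodronate liposomes it was 1.86, 1, 3.63, 1 and 3.47 CPM in control mice and 1, 1, 7.78, 5.65 and 4.21 CPM in wheel mice. The 4 groups overlapped, and 2 mice in each were at the floor. Gzmb, granzyme B, the protease that cleaves caspases in the target cell and is made after NK and T cells are activated, stayed at the floor in all 22 mice, including the 5 lymphocyte-rich libraries.

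Of the receptors, Klrd1 encodes CD94, which pairs with NKG2 proteins to read the non-classical MHC molecule Qa-1 and is carried by NK cells and some CD8 T cells. It was 1 to 4.12 CPM (median 1.32) in control and 1 to 6.23 CPM (median 1.25) in wheel mice with PBS liposomes. With clodronate liposomes 4 of 5 control mice were at the floor (1.43 CPM in mouse 5), and wheel mice had 1, 1.09, 9.11, 17.6 and 7.46 CPM. As for Nkg7, wheel mice 3 to 5 were above every other mouse of the study.

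Ncr1 encodes NKp46, the activating receptor that in mice is nearly restricted to NK cells and innate lymphoid cells. It was above the floor in 1 mouse of each group, at 1.77 CPM (27 reads) in control mouse 3 and 3.30 CPM (44 reads) in wheel mouse 3 with PBS liposomes, and at 1.43 CPM (19 reads) in control mouse 5 and 3.17 CPM (46 reads) in wheel mouse 1 with clodronate liposomes. Ncr1 was thus at the floor in the 3 libraries where Nkg7, Klrd1 and Eomes were highest, where the floor stood for 16 to 18 reads, and above it in 1 of the 5 lymphocyte-rich libraries.

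Klrb1c encodes NK1.1, the antigen used to identify NK cells in C57BL/6 mice. Its levels were low throughout: at most 1.68 CPM in control and 2.18 CPM in wheel mice with PBS liposomes, with 4 of 6 mice at the floor in both groups. With clodronate liposomes it was 1, 1, 1.60, 2.10 and 2.56 CPM in control mice and 1, 1, 3.16, 3.28 and 1 CPM in wheel mice. Here 3 control mice without high B cell markers were above the floor, and wheel mouse 5, rich in lymphocyte markers, was not.

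The secreted products were sparse. Ifng, interferon gamma, was above the floor in 1 of 22 mice, at 1.28 CPM (24 reads) in wheel mouse 5 with clodronate liposomes. Xcl1, a chemokine made by NK cells and CD8 T cells that attracts cross-presenting dendritic cells, was 1 to 2.56 CPM (median 1.05) in control and 1 to 2.13 CPM (median 1) in wheel mice with PBS liposomes. With clodronate liposomes it was 1, 1, 1.19, 1 and 1 CPM in control mice and 1.72, 2.37, 6.62, 3.52 and 3.94 CPM in wheel mice. These 2 groups did not overlap, and the share of all genes that separate them was not counted. Xcl1, like Nkg7, was above the floor in wheel mice 1 and 2 as well, on 25 and 37 reads, and these 2 values lay within the range of the PBS groups. For wheel mouse 2 that held only through lymphocyte-rich control mouse 2 with PBS liposomes, at 2.56 CPM. Its 2.37 CPM was the highest of the 17 libraries that are not lymphocyte-rich.

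Eomes encodes eomesodermin, the T-box factor that marks conventional NK cells and memory CD8 T cells. It was 1 to 2.07 CPM (median 1.17) in control and 1 to 1.33 CPM (median 1) in wheel mice with PBS liposomes. With clodronate liposomes 4 of 5 control mice were at the floor (1.74 CPM in mouse 3), and wheel mice had 1, 1, 7.05, 8.50 and 5.91 CPM. The 3 high values stood well clear of the highest other mouse, and wheel mouse 3 with PBS liposomes, also lymphocyte-rich, was at the floor.

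**Figure D2:**
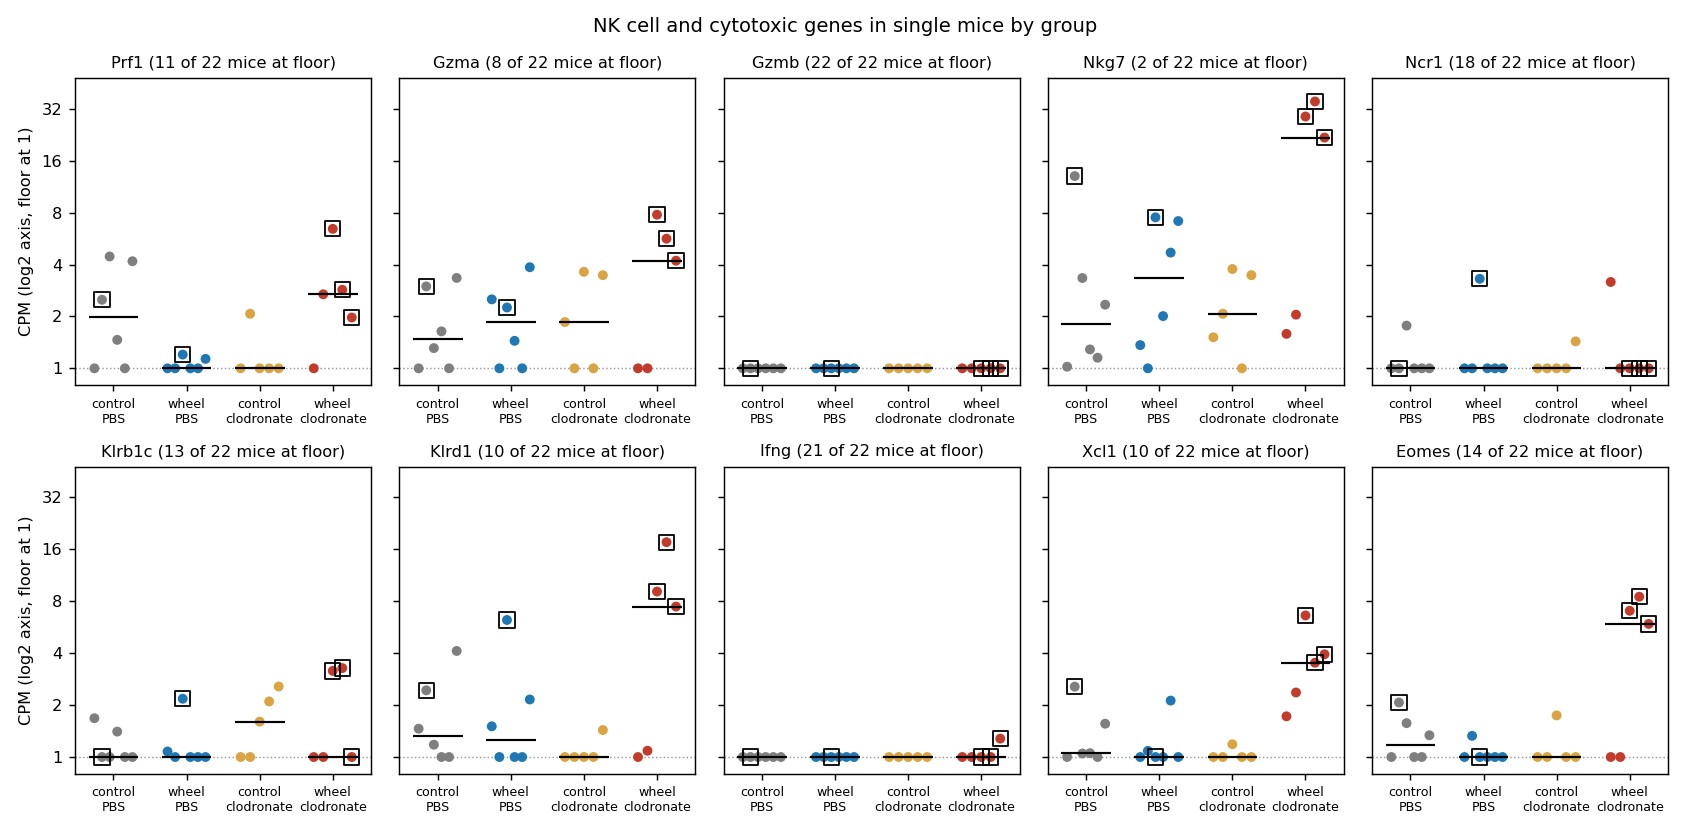
CPM of each gene in single mice (points, log2 axis with the floor at 1 as a dotted line) by group, with the group median as a bar and squares around the 5 libraries high in B cell markers. For Nkg7, Klrd1 and Eomes the 3 squares of wheel mice with clodronate liposomes, from 5.91 CPM for Eomes to 35.3 CPM for Nkg7, lie above all other mice, while Xcl1 is above the floor in all 5 mice of that group.

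Set against the T cell markers of the same library, the members scaled unevenly. For each 100 CPM of T cell markers, Nkg7 was 4.59 CPM in control mouse 2 and 2.59 in wheel mouse 3 with PBS liposomes, and 4.57, 5.67 and 5.35 in wheel mice 3, 4 and 5 with clodronate liposomes. For Klrd1 the same ratios were 0.857, 2.15, 1.44, 2.83 and 1.83. The 2 PBS libraries, with T cell marker sums of 284 and 290 CPM, held different mixes of members: control mouse 2 was higher in Nkg7, Prf1, Gzma, Xcl1 and Eomes, and wheel mouse 3 in Klrd1, Klrb1c and Ncr1. Per mouse, 6 to 7 of the 10 genes were above the floor in the 5 lymphocyte-rich libraries and 1 to 7 (median 3) in the other 17.

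**Figure D3:**
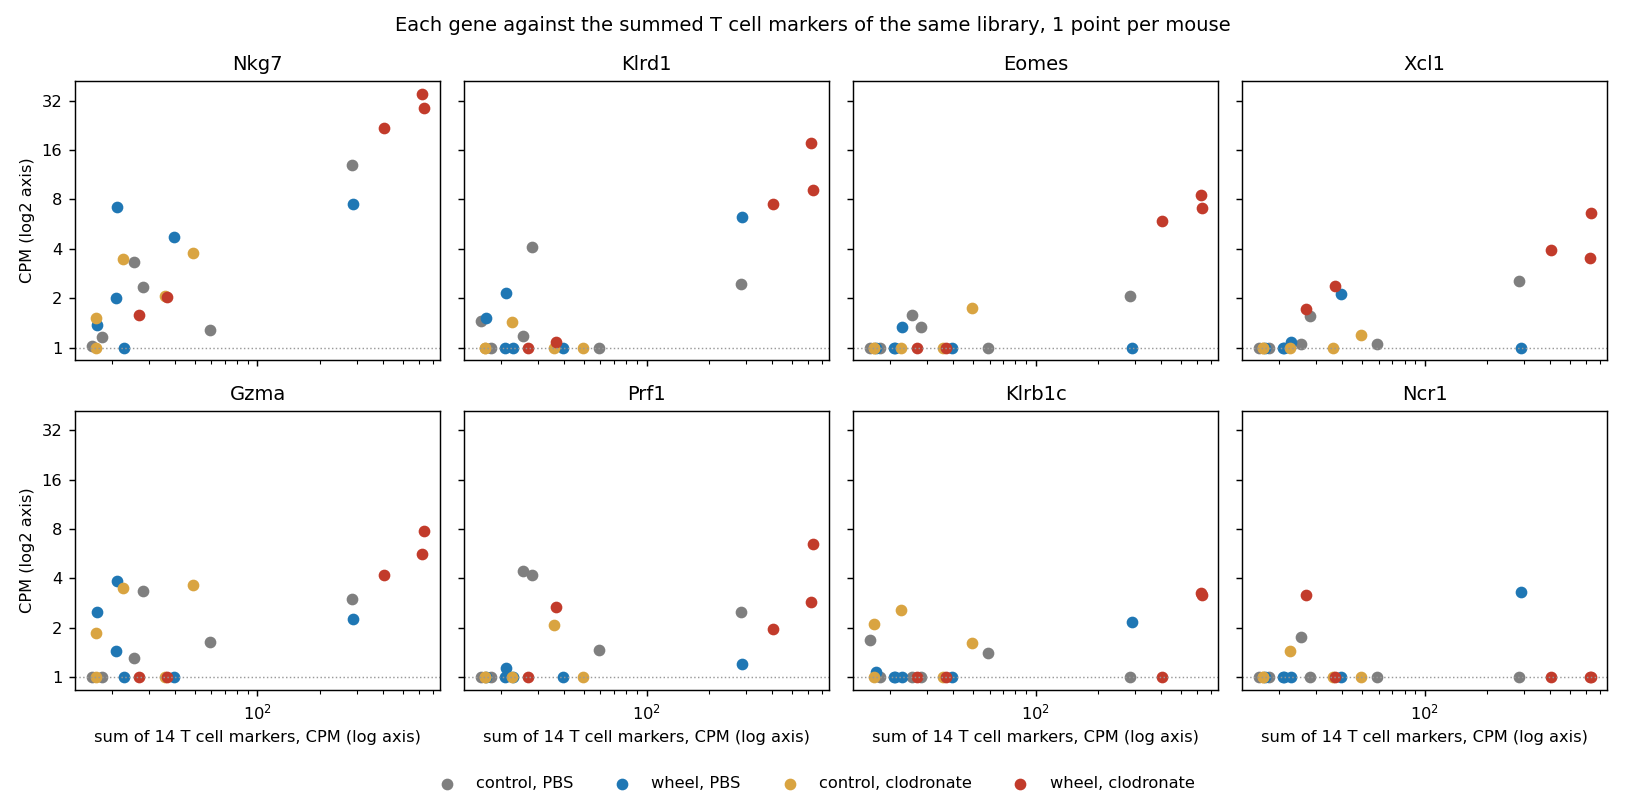
CPM of 8 genes (log2 axis) against the summed CPM of 14 T cell markers (log axis), 1 point per mouse, coloured by group. Nkg7, Klrd1, Eomes and Xcl1 reach their highest CPM in the 3 libraries with T cell sums of 408 to 631 CPM, whereas Ncr1 is at the floor in those 3 and Prf1 is highest at the largest sum (6.44 CPM at 631 CPM) and reaches 4.45 CPM at a sum of 25.4 CPM.

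Whether running changed these genes in mice not given clodronate was asked by comparing wheel with control mice under PBS liposomes. Of the 7 genes tested, 0 passed an adjusted p of 0.05 (limma, Benjamini-Hochberg over 15138 genes), where 0% of all genes passed. At an unadjusted p of 0.05, 1 member was lower and 0 were higher, against 4.12% of all genes lower and 0.799% higher (623 and 121 genes, which upper-quartile scaling made 273 and 274). The lower one was Prf1, with a change of -0.62 on the log2(CPM + 1) scale (SE 0.27, 95% interval -1.18 to -0.05, limma adjusted p = 0.987), a scale that understates changes of low genes. An exact two-sided permutation of the 12 mice gave p = 0.0606 for Prf1 over 924 splits, and without the 2 lymphocyte-rich libraries of these groups the change was -0.61. With all 12 mice, the other 6 changes ran from -0.16 for Eomes to 0.25 for Nkg7 (95% interval -1.04 to 1.53). Lymphocyte-rich libraries gave the highest Nkg7 value of each group, 13 CPM in control and 7.51 CPM in wheel mice. The highest Klrd1 value of these wheel mice, 6.23 CPM, also came from the lymphocyte-rich one. The median of the 7 changes was 0.01 and that of all genes -0.08.

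The same question in mice given clodronate was asked by comparing the 5 wheel with the 5 control mice. Again 0 of 7 genes passed the adjusted threshold, where 0.00661% of all genes did, a single gene. That gene, Gm7536, lies outside the named lists and was looked up after its values were seen; it was 1.93 to 2.5 CPM in wheel mice and at the floor in all 5 control mice, with a change of 0.69 (SE 0.10, limma adjusted p = 0.0129). Only 4 mice outside the wheel clodronate group were above the floor for Gm7536, so it passed the filter through that group. With only the groups compared, the replicate block or the B cell covariate, 0 genes were called. At an unadjusted p of 0.05, 5 of the 7 genes were higher and 0 lower, against 7.04% of all genes higher and 3.4% lower. The share of reads assigned to genes also separated these groups, at 57.2% to 58.5% in wheel and 58.7% to 63.0% in control mice, and its part in the result was not tested. The 5 higher genes were Nkg7 (1.84, SE 0.68, limma adjusted p = 0.304), Klrd1 (1.48, SE 0.48, 0.263), Eomes (1.12, SE 0.33, 0.243), Xcl1 (1.10, SE 0.22, 0.207) and Prf1 (0.74, SE 0.30, 0.355). Over the same mice 14 of 14 T cell markers and 8 of 8 B cell markers were higher at an unadjusted p of 0.05, with median changes of 2.31 and 3.32, and 0 of either list passed the adjusted threshold in limma. Of these markers Cd6, Cd79a and Cr2 were above the floor in the 5 lymphocyte-rich libraries alone, and so could be tested only because of them.

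Without the 5 lymphocyte-rich libraries, only wheel mice 1 and 2 remain in that group, and the estimates for Nkg7 (-0.18), Klrd1 (-0.026) and Eomes (-0.091) turned to the other sign, as did those for Gzma (from 0.47 to -0.58) and Klrb1c (from 0.06 to -0.37). Xcl1 was 0.57 (95% interval 0.19 to 0.95, limma adjusted p = 0.497) and Prf1 0.32 (-0.45 to 1.08). In an exact permutation of all 10 mice, Xcl1 gave p = 0.00794, the smallest that 252 splits allow, and the other 6 gave 0.0873 or more. Permutations were run for the tested members alone, so no share of all genes can be set beside them. Calls appeared when a wheel mouse with few lymphocyte markers was left out. Without wheel mouse 1, 2 members passed (Xcl1, limma adjusted p = 0.0181, and Eomes), and without wheel mouse 2, 3 did (Xcl1, limma adjusted p = 0.0318, Eomes and Klrd1). Calls among all 15138 genes went from 1 to 118 and 236 in the same fits. With the level of B cell markers as a covariate the estimates were 0.69 for Xcl1 (limma adjusted p = 0.852), 0.42 for Prf1, 0.33 for Eomes, 0.19 for Klrd1 and 0.0067 for Nkg7, and 0 passed. No control mouse with clodronate liposomes is among the 5 libraries, so the comparison could not be made within them.

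**Figure D4:**
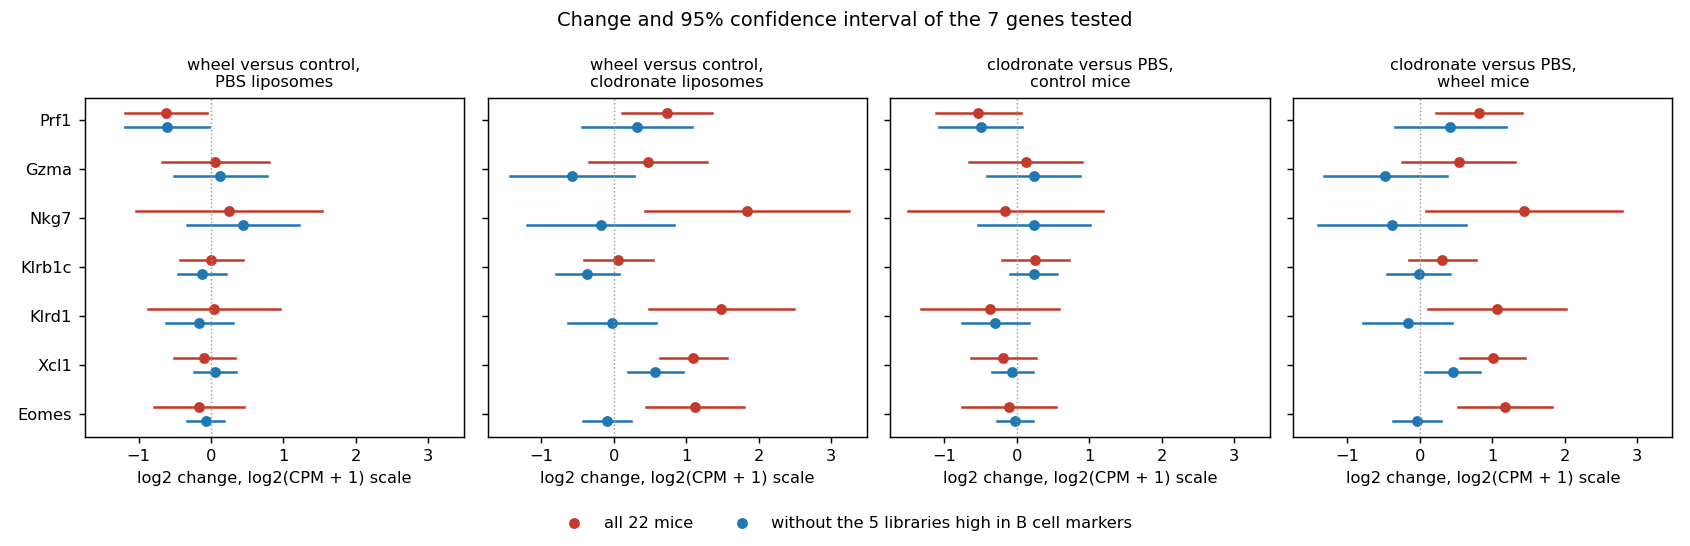
Change on the log2(CPM + 1) scale with its 95% confidence interval (limma) for the 7 genes tested, in 4 comparisons, with all 22 mice (red) and without the 5 libraries high in B cell markers (blue). In the comparisons that involve wheel mice with clodronate liposomes the red estimates for Nkg7, Klrd1 and Eomes lie between 1.07 and 1.84 and the blue ones between -0.38 and -0.026, while Xcl1 stays above 0.

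The effect of clodronate itself, which targets macrophages and not NK cells, was compared within each activity. Macrophage markers summed to 75.0 to 242 CPM in control and 94.9 to 210 CPM in wheel mice with PBS liposomes, and to 94.9 to 148 CPM in control mice and 71.6, 98.5, 236, 201 and 192 CPM in wheel mice 1 to 5 with clodronate liposomes. The 3 wheel mice rich in lymphocyte markers were thus also the highest of that group in macrophage markers, and the lowest in mammary epithelium markers (513, 291 and 270 CPM, against 995 and 1239 in mice 1 and 2). In limma 0 of the 7 macrophage markers passed in either comparison, and at an unadjusted p of 0.05 1 was lower in control and 0 in wheel mice. Their part in the values of the members was not tested. In control mice 0 of the 7 NK cell and cytotoxic genes tested passed, as did 0% of all genes, and at an unadjusted p of 0.05 0 were higher and 0 lower, against 0.905% and 6.08% of all genes (137 and 921 genes, which upper-quartile scaling made 303 and 386). Estimates ran from -0.53 for Prf1 (95% interval -1.12 to 0.06) to 0.26 for Klrb1c (-0.20 to 0.71).

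In wheel mice 0 of 7 passed, against 0.00661% of all genes, again Gm7536 alone, and 0 genes were called with only the groups compared, the replicate block or the B cell covariate. At an unadjusted p of 0.05, 5 genes were higher and 0 lower, against 6.08% and 5.54% of all genes (921 and 838 genes). Without the 5 libraries 455 of 15109 genes were higher and 869 lower. This comparison shares its 5 wheel mice with clodronate liposomes with the wheel comparison above, and its estimates were 1.44 (SE 0.65) for Nkg7, 1.17 (SE 0.31) for Eomes, 1.07 (SE 0.46) for Klrd1, 1.00 (SE 0.21) for Xcl1 and 0.82 (SE 0.29) for Prf1, with limma adjusted p-values of 0.392, 0.174, 0.369, 0.109 and 0.269. Exact permutation of the 11 mice gave p = 0.00866 for Xcl1 and p = 0.0303 for Prf1, and at least 0.108 for the other 5. Without the 5 libraries Xcl1 was 0.46 (95% interval 0.08 to 0.84, limma adjusted p = 0.483) and Prf1 0.42, and Nkg7 (-0.38), Klrd1 (-0.17) and Eomes (-0.044) turned, as did Gzma (from 0.54 to -0.48) and Klrb1c (from 0.31 to -0.011). Leaving out wheel clodronate mouse 1 or mouse 2 made 2 members pass (Xcl1 and Eomes), with a lowest limma adjusted p of 0.0243 and 0.0328, while calls among all 15138 genes went from 1 to 28 and 51.

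Averaged over liposomes, wheel against control gave 0 of 7 members past the threshold (0% of all genes), with 4 higher and 0 lower at an unadjusted p of 0.05 against 3.93% and 4.16% of all genes (595 and 629 genes, which upper-quartile scaling made 771 and 425). The 4 were Nkg7 (1.043), Klrd1 (0.76), Xcl1 (0.50) and Eomes (0.48), and without the 5 libraries they were 0.13, -0.092, 0.31 and -0.083. Averaged over activity, clodronate against PBS gave 0 of 7 (0.205% of all genes, 31 genes, all lower), with 2 higher and 0 lower against 2.13% and 8.3% (323 and 1256 genes, with that scaling 559 and 785). The 31 became 0 without the 5 libraries, 11 with the replicate block and 9 to 146 leaving out 1 mouse. The 2 members were Eomes (0.53) and Xcl1 (0.41), and without the 5 libraries they were -0.035 and 0.20. Whether the effect of the wheel differed between liposomes was tested by the interaction, in which 0 of 7 passed (0% of all genes), and 4 were higher and 0 lower at an unadjusted p of 0.05 against 6.35% and 1.23% (961 and 186 genes, with that scaling 648 and 392). These 4 were Klrd1 at 1.44 (limma adjusted p = 0.647), Prf1 at 1.35 (0.591), Eomes at 1.28 (0.613) and Xcl1 at 1.19 (0.537), and without the 5 libraries they were 0.13, 0.92, -0.017 and 0.52. The estimate for Nkg7, 1.60 (95% interval -0.31 to 3.50), turned to -0.62 without them. Upper-quartile scaling moved the median of all genes in the interaction by 0.10, from 0.09 to -0.0092, and turned the estimate for Klrb1c from 0.06 to -0.014.

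Other genes of the same machinery were taken from 6 lists with 85 genes, of which 58 could be tested and 0 passed in any of the 7 comparisons (lowest limma adjusted p 0.207). Values below are for wheel against control mice with clodronate liposomes, where the members' median was 1.10 and that of all genes 0.00. Of all genes 7.04% were higher there at an unadjusted p of 0.05, the threshold used for each list, and without the 5 lymphocyte-rich libraries 388 of 15109 genes were. Among 16 other granule and killing genes, 8 could be tested and 3 were higher (median 0.53), against 0 of 8 without the 5 lymphocyte-rich libraries. Srgn, the proteoglycan that packs granules in many blood cells, was 26, 21.7, 135, 164 and 94.5 CPM in wheel mice and 17.7 to 41.9 CPM in control mice. Ctsc, the protease that activates granzymes, was 36.2 to 77.2 CPM in wheel mice and 23.2 to 37.6 CPM in control mice, a change of 0.85 (SE 0.23, limma adjusted p = 0.232). Gzmd, Gzme, Gzmg and Gzmk were at the floor in all 22 mice, as Gzmb was.

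Of 24 other NK receptor genes 13 could be tested and 7 were higher (median 0.61), against 1 of 13 without the 5 libraries. Il2rb, the receptor chain through which NK cells take IL-15 signals, was highest in the same 3 mice as Nkg7 and Klrd1, with 1, 3.07, 24.5, 27.6 and 21.6 CPM in wheel and 1 to 4.38 CPM in control mice. Slamf7, also carried by B cells and myeloid cells, was 7.37, 3.13, 27.0, 20 and 19.0 CPM against 1 to 6.74 CPM. Of 12 transcription factor and signalling genes 10 could be tested and 4 were higher (median 0.35), against 0 of 9 without the 5 libraries. Zap70 dropped out there, being at the floor in all 17 other mice. Sh2d1b1 was above the floor in 5 of the 22 mice, wheel clodronate mouse 3 among them. It too passed the filter only with the lymphocyte-rich libraries. The most abundant, Zeb2 and Id2, were not among the 4. Zeb2 was 60.6 to 90.7 CPM in wheel and 52.5 to 139 CPM in control mice, and Id2 36.3 to 118 CPM and 55.8 to 113 CPM.

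Further lists held genes upstream and downstream of the killer cell. Of 15 activating cytokine and ligand genes 10 could be tested and 2 were higher (median 0.16), against 0 of 10 without the 5 libraries. Nectin2 and Il15ra, a ligand of the receptor DNAM-1 and the presenter of IL-15, overlapped between groups at 17.2 to 30.2 against 22.7 to 32.8 CPM and 10.3 to 24.2 against 7.27 to 17.6 CPM. Of 7 chemokine and receptor genes 6 could be tested and 1 was higher (median 0.42), against 0 of 6 without the 5 libraries. Ccl5, a chemokine stored by memory T cells and NK cells, was 2.27, 2.11, 132, 152 and 88.1 CPM in wheel mice and 4.26 to 9.96 CPM in control mice, so its 2 lowest and 3 highest values were all in wheel mice. Of 11 interferon gamma target genes 11 could be tested and 2 were higher (median 0.50), against 0 of 11 without the 5 libraries. Iigp1, an immunity-related GTPase, was 46.5 to 132 CPM in wheel and 30.4 to 214 CPM in control mice. At least 9 of the 11 targets were above the floor in every mouse, including the 21 in which Ifng itself was not detectable.

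Whether members varied together was examined among the 17 mice without high B cell markers. For the 6 members above the floor in at least 5 of these mice, 15 pairs were compared on log2(CPM + 1), and 0 passed after adjustment over the pairs. The closest was Gzma with Klrd1 (Pearson r = 0.60, permutation p = 0.00682, adjusted 0.102; Spearman rho = 0.47, permutation p = 0.0601, adjusted 0.45), and r was 0.68 without the 2 mice farthest from the median of Gzma. For Gzma with Nkg7 r was 0.56 (permutation p = 0.0185, adjusted 0.139; rho = 0.52, permutation p = 0.0331, adjusted 0.45) and 0.27 without the 2 farthest mice. Prf1 with Klrb1c had the lowest r, -0.31.

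Over the same 17 mice the 8 genes outside the list whose log2(CPM + 1) followed the mean of the 10 members most closely were Slc11a2 (r = 0.76), Adgre4 (0.76), B230206L02Rik (0.74), Anks6 (0.74), Tnfrsf23 (0.73), Gm19391 (0.72), Retnlg (0.72) and Hmox2 (0.70). They were picked as the highest r among all genes above the floor in 5 or more mice, so high values follow from the choice. Whether any r exceeds chance was not tested. The points share 4 groups of mice and a floor, and Adgre4, Gm19391 and Retnlg were above it in 6 of the 17 mice each. Slc11a2, an iron transporter, ranged from 8.93 to 22.4 CPM and Hmox2, a heme oxygenase, from 33.8 to 59.8 CPM. None of the 8 is a gene of the 6 pathway lists, and Retnlg is 1 of the 5 neutrophil markers.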

How the data were processed

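RNA from mammary tissue was measured in 22 mice in 4 groups taken from the labels. The submitters' processing notes name STAR 2.5.3a and GRCm38; the counting is not given in the sources used here. The deposited signal is CPM, with values below 1 raised to 1. The 4 rows naming no gene (unmapped, multimapping, ambiguous and no feature) were left out of tests; 57.2% to 64.5% of reads were assigned to genes above the floor. Values above the floor were whole reads (100% within 0.1 read), but reads at the floor are lost, so no count test was run. The CPM total includes reads assigned to no gene. For 106 repeated symbols the row with the highest mean was kept.

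Genes above 1 CPM in at least 5 mice were fitted on log2(CPM + 1) with limma 3.58.1 in R 4.3.3. The fit used 4 group means, a variance trend, 7 contrasts and Benjamini-Hochberg adjustment. It was tried on simulated data without lymphocyte-rich libraries. Changes were planted there in genes with a higher mean than every tested member except Nkg7, so power for the others was not measured. Exact permutations used scipy 1.17.1, and random permutations of mice for correlations numpy 2.4.6. A library stood apart if its summed B cell markers exceeded 10 times the median. Named genes were the 10 members, the 2 most abundant genes of each pathway list (none passed the threshold; 2 of these genes are not reported), and the 8 with the highest likeness. Members and lists were chosen with earlier results of these data known. Alternatives were a pseudocount of 5 or none, other filters, upper-quartile scaling, fitting only the groups compared, the replicate number as a block, a B cell marker covariate, leaving out the 5 libraries or each mouse, and exact permutation.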

Additional observations from a re-analysis of the deposited data

Results flagged for a closer look

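Within each of the 4 groups, every member and the T and B cell marker sums were searched for a mouse lying far from the others (Dixon's ratio on a log2 scale). Of 48 groups 16 held one. Chance gives about 1 in 20 groups for values without a floor, which is no measure for this count: in 7 groups of Gzmb and Ifng every mouse was at the floor and none stood out, and in 10 of the 16 every other mouse was at the floor, so any value above it stood out. The B cell sums also defined the libraries that stand apart.

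Those 10 were Prf1 at 2.07 CPM in control clodronate mouse 2, Ncr1 at 1.77 in control PBS mouse 3, 3.30 in wheel PBS mouse 3, 1.43 in control clodronate mouse 5 and 3.17 in wheel clodronate mouse 1, Klrd1 at 1.43 in control clodronate mouse 5, Ifng at 1.28 in wheel clodronate mouse 5, Xcl1 at 1.19 and Eomes at 1.74 in control clodronate mouse 3, and Eomes at 1.33 in wheel PBS mouse 2. In wheel PBS mouse 5 Xcl1 was 2.13 CPM, against 1 to 1.09 in the other 5.

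In wheel PBS mouse 3 Klrb1c was 2.18 CPM against 1 to 1.08, Klrd1 was 6.23 against 1 to 2.16, the T cell markers summed to 290 CPM against 17 to 39.6, and the B cell markers to 241 against 8 to 9.10. The B cell markers of control PBS mouse 2 summed to 200.1 CPM, against 8 to 10.2 in the others. The part of these lymphocyte levels in the values of Klrb1c and Klrd1 was not tested.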

How the results depend on the processing

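The count of 0 members past the threshold held in all 7 comparisons under a pseudocount of 5, no pseudocount, no filter, a minimum mean of 5 CPM (which leaves Nkg7 as the member tested), upper-quartile scaling, the replicate block, the B cell covariate and without the 5 libraries, and in the 4 simple comparisons when only the groups compared were fitted. Leaving out 1 mouse gave 0 to 3 members for wheel against control with clodronate, 0 to 2 for clodronate against PBS in wheel mice, and 0 in the other 5.

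Without the 5 libraries, wheel against control with clodronate turned for Eomes (-0.091), Klrd1 (-0.026) and Nkg7 (-0.18), and clodronate against PBS in wheel mice for Eomes (-0.044), Klrd1 (-0.17) and Nkg7 (-0.38), the last also with the covariate (-0.0046). Gzma (-0.58 and -0.48) and Klrb1c (-0.37 and -0.011) turned in both comparisons without the 5 libraries, and with the covariate Gzma did in both (-0.32 and -0.085) and Klrb1c in the first (-0.32); the cause was not tested. Leaving out 1 mouse gave, for wheel against control with clodronate, 0.89 to 1.27 for Xcl1, 0.86 to 1.42 for Eomes, 1.06 to 1.87 for Klrd1, 1.42 to 2.38 for Nkg7 and 0.48 to 0.95 for Prf1. For clodronate against PBS in wheel mice it gave 0.80 to 1.17, 0.91 to 1.48, 0.65 to 1.45, 1.02 to 1.97 and 0.56 to 1.035 in the same order, and for Prf1 with PBS -0.75 to -0.46.

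Genes called, 1 for wheel against control with clodronate, became 3 without a filter, 6 without the 5 libraries and 0 with a minimum mean of 5 CPM, only the groups compared, the block or the covariate (0 to 236 leaving out 1 mouse, the highest without wheel clodronate mouse 2). Clodronate against PBS in wheel mice, also 1, became 3 with a pseudocount of 5, upper-quartile scaling or without the 5 libraries, 4 without a filter, and 0 with a minimum mean of 5 CPM, only the groups compared, the block or the covariate (0 to 51, the highest without the same mouse). Averaged over activity, clodronate against PBS went from 31 to 54 with a minimum mean of 5 CPM, 12 with upper-quartile scaling, 11 with the block and 0 without the 5 libraries (9 to 146, the highest without control clodronate mouse 1). Averaged over liposomes, and in the interaction, 2 were called without a filter and 0 to 0 leaving out 1 mouse; clodronate against PBS in control mice gave 0 to 38, the highest without control clodronate mouse 1, and wheel against control with PBS 0 to 0. The causes were not tested.

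Replicate numbers were not taken as pairs in the main fit. Same-numbered deviations had mean correlations of -0.08, 0.18, 0.10 and 0.13 in the 4 simple comparisons, with single pairs from -0.39 to 0.52. A mouse was most like its own number in 0 of 6, 2 of 5, 1 of 5 and 2 of 5 pairs. Whether same-numbered mice were more alike than others was not tested. The replicate block left 0 members and 0 genes called except 11 averaged over activity. Upper-quartile scaling moved the median of all genes by 0.10 in the interaction, and with PBS the unadjusted split of 121 higher and 623 lower genes became 274 and 273. The floor hides any change below 13 to 20 reads, which covers Gzmb, Ncr1 and Ifng in nearly all mice. The intervals assume similar variance in all 4 groups.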
